A study of Mus musculus with 6 samples.

Results

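Genes of the TNF receptor superfamily were followed by RNA sequencing in macrophages cultured from mouse bone marrow. The set is 9 genes, Ltbr, Tnfrsf14, Tnfrsf1a, Tnfrsf1b, Cd40, Fas, Tnfrsf11a, Tnfrsf9 and Tnfrsf12a, chosen by gene symbol from 55023 listed genes, and all 9 were found and passed the filter on low counts. The cells were treated for 24 h with LCL161 together with LTα1β2, with LTα1β2 alone, or with vehicle, with 2 libraries per group. The protein LTα1β2 is the lymphotoxin heterotrimer, which the lymphotoxin beta receptor binds, while LCL161, a Smac mimetic, is a drug that targets the ubiquitin ligases cIAP1 and cIAP2. No group with LCL161 by itself is analysed here, and its addition was measured only on top of LTα1β2. Doses, mouse strain and age, and whether replicates came from separate animals or cultures are not given in the labels. The p-values therefore reflect how far the libraries within a group lie apart, and this may be no more than technical error.

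Receptors of this superfamily bind trimeric ligands through cysteine-rich repeats and carry no enzyme of their own. Some, such as TNFR1 and Fas, hold a death domain, while others, such as CD40, TNFR2 and RANK, bind TRAF adaptors directly. In resting cells a complex of TRAF2, TRAF3 and the cIAPs keeps the kinase NIK low, and engagement of the lymphotoxin beta receptor, CD40 or RANK, or loss of the cIAPs, releases NIK and noncanonical NF-kB signalling. In myeloid cells CD40 is known for licensing antigen-presenting cells, and RANK for driving osteoclast formation.

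Total counts were 14718368 to 19049613 per library. Levels are given as CPM, read counts relative to the library size after scaling by TMM, a method that centres most genes on no change. A gene with 3 reads, taken as the floor, has 0.139 to 0.230 CPM. All 10 macrophage markers examined passed the filter, and their summed level was 28121 to 34731 CPM over the 6 libraries, most of it Lyz2 (lysozyme). Single macrophage markers changed within that sum: on adding LCL161, 3 of the 10 rose and 5 fell, and with LTα1β2 alone 6 rose and 2 fell. Among all tested genes, 25.7% and 23.4% changed in these comparisons. Mrc1 (CD206, a marker of alternatively activated macrophages) had a mean of 5.22 CPM with LCL161 plus LTα1β2, 29.4 CPM with LTα1β2 and 119 CPM with vehicle. Csf1r, Itgam, Fcgr1 and C1qa rose with LTα1β2 and fell when LCL161 was added. Adgre1 and Mertk rose at both steps, and Cd14 fell with LTα1β2 and rose when LCL161 was added. Markers of stromal cells were also present: the summed level of 13 such genes was 896 and 943 CPM with LCL161 plus LTα1β2, 3213 and 4445 CPM with LTα1β2, and 11894 and 8259 CPM with vehicle. In each of the 3 comparisons 10 of the 12 stromal markers tested fell. Of all tested genes, 15.1% fell on adding LCL161, 10.6% with LTα1β2 alone and 21.1% between the combination and vehicle. The sum of 5 osteoblast markers was 6.79 and 7.20 CPM with the combination, 12.7 and 18.9 CPM with LTα1β2, and 89.2 and 34.1 CPM with vehicle. Over all libraries, endothelial markers summed to 8.98 to 17.7 CPM and mast cell and basophil markers to 1.71 to 4.54 CPM. In such a bulk measurement, fewer cells of a type and less RNA per cell cannot be told apart.

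Cd40 had the largest log2 change of the 9 receptors on adding LCL161 and between the combination and vehicle, while with LTα1β2 alone its interval overlapped that of Tnfrsf14. With LCL161 plus LTα1β2 its level was 617 ± 55.5 CPM, against 36.9 ± 6.46 CPM with LTα1β2 and 4.8 ± 1.13 CPM with vehicle (SD, n = 2 each). Tnfrsf14, Fas, Tnfrsf1b, Tnfrsf1a, Tnfrsf11a and Tnfrsf9 were also higher with the combination than with vehicle, by 1.36-fold (Tnfrsf1a) to 7.58-fold (Tnfrsf14). Tnfrsf12a was 4.95-fold lower, and Ltbr did not pass the test in that comparison. The receptors took different courses between the groups: Cd40 and Fas rose both with LTα1β2 and again with LCL161, Tnfrsf1a and Ltbr rose with LTα1β2 and fell when LCL161 was added, and Tnfrsf12a fell at both steps.

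**Figure D1:**
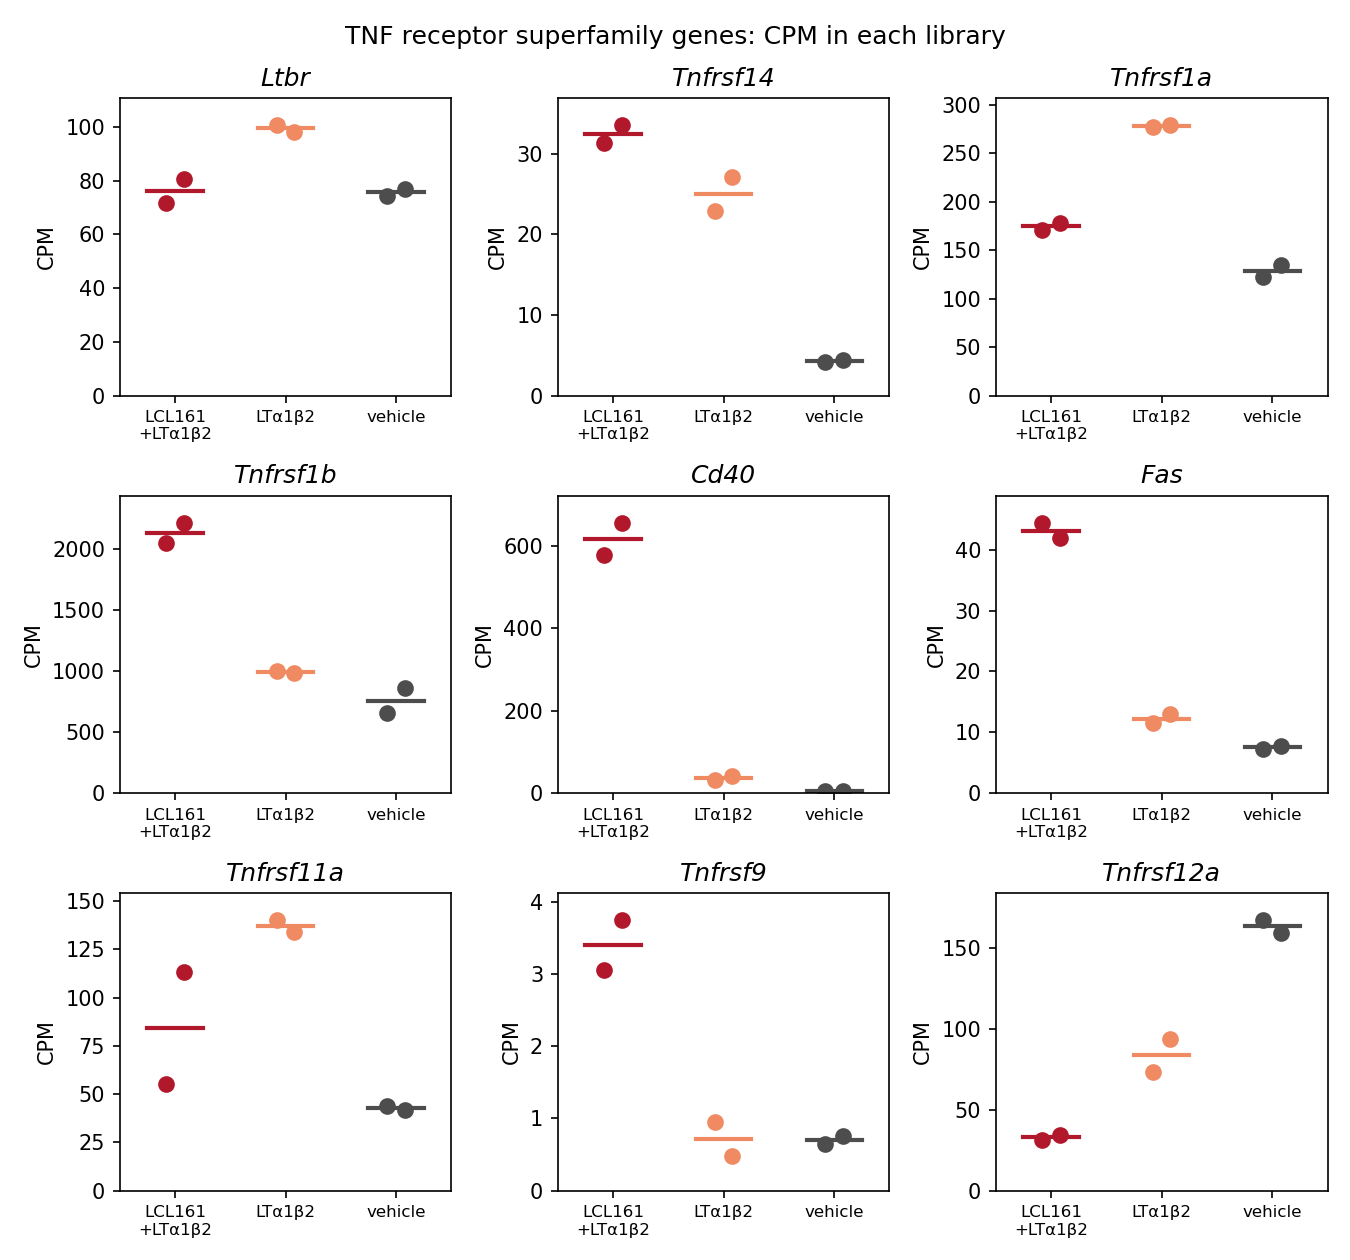
Level of each receptor gene in CPM (vertical axis, from 0) in every library of the 3 treatment groups (horizontal axis), where points are libraries and bars are group means of 2 libraries. Cd40 reaches 578 and 656 CPM with LCL161 plus LTα1β2, while Tnfrsf1a and Ltbr are highest with LTα1β2 alone and Tnfrsf12a is highest with vehicle.

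A gene is said to have risen or fallen where edgeR's quasi-likelihood test passed an adjusted p of 0.05 over all 18812 genes tested. Changes are on the log2 scale, each with its standard error (SE), which is approximate. When LCL161 was added to LTα1β2, 4 of the 9 receptors rose and 3 fell, where 25.7% of all tested genes changed (10.6% higher and 15.1% lower). With LTα1β2 alone against vehicle, 6 rose and 1 fell, where 23.4% of all genes changed (12.8% higher and 10.6% lower). Between LCL161 plus LTα1β2 and vehicle, 7 rose and 1 fell, where 39.5% of all genes changed (18.4% higher and 21.1% lower). The median log2 change of the 9 receptors was 0.37, 0.71 and 1.5 in these comparisons, and that of all tested genes 0.004, -0.04 and 0.05. The receptors were chosen with earlier results of these data known, and the comparisons share libraries, so these counts are descriptions of the set.

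**Figure D2:**
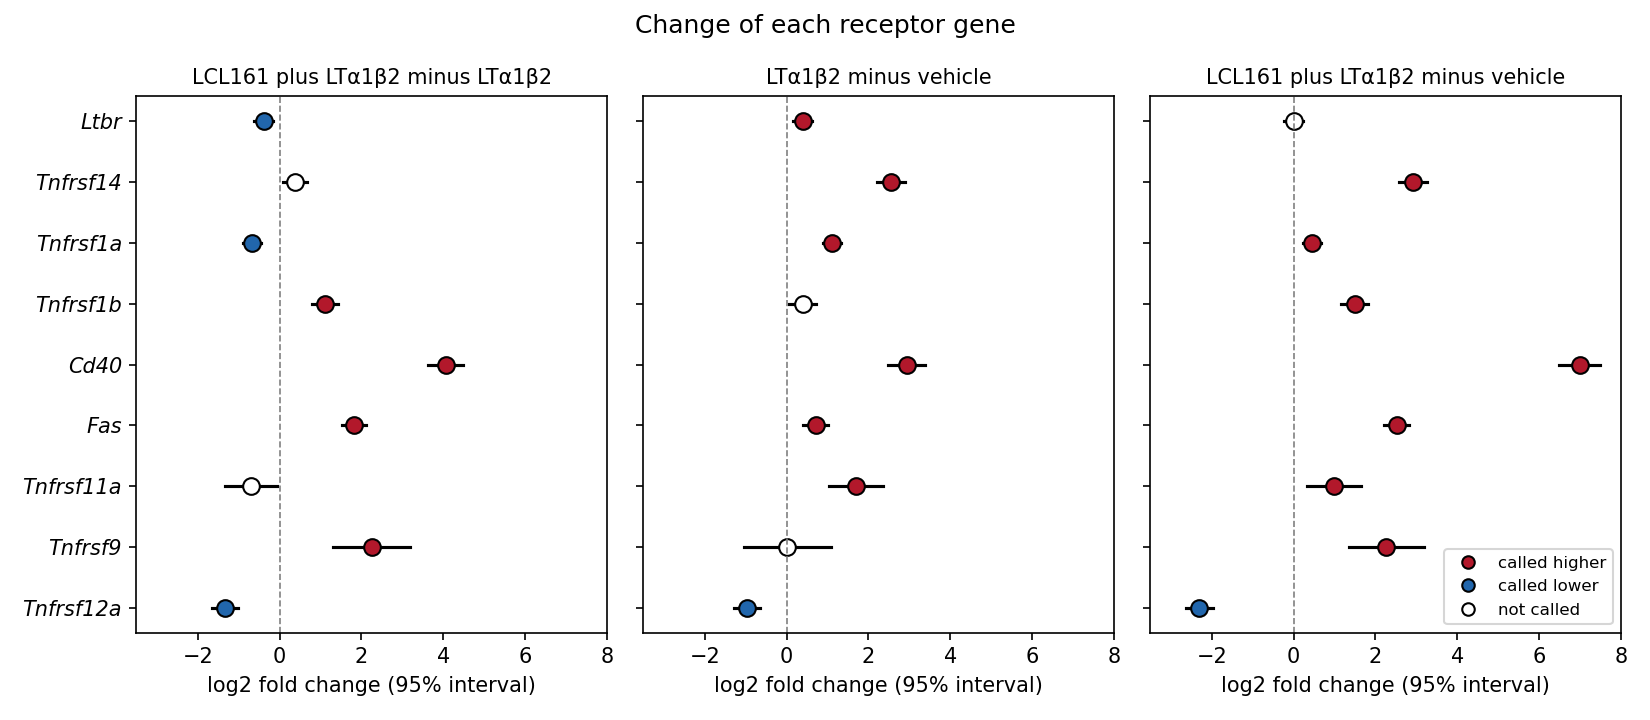
Log2 fold change of each receptor (horizontal axis, points) with its 95% interval (lines) in the 3 comparisons, each given as first group minus second. Red and blue points passed edgeR's adjusted p of 0.05 as higher or lower and white points did not. Cd40 lies at 4.06, 2.93 and 7.0 in the 3 panels, and Tnfrsf12a lies below 0 in each.

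The promoters of the receptors were read beside these changes. The 250 bases before the RefSeq transcription start (build GRCm38.p6) were searched on both strands in the 8 of the 9 receptors that the promoter table holds, and Cd40 was not matched. The motifs were GGGNNTTCC for NF-kB, which acts below these receptors, TTCNNNGAA for STAT dimers (the GAS element) and GAAANNGAA for interferon regulatory factors (the core of the ISRE), and these forms were chosen after longer and looser ones had been tried. GGGNNTTCC occurred in Tnfrsf9 among the 8 receptors and in 5.0% of 32536 promoter windows, GAAANNGAA in Tnfrsf14 and Tnfrsf1b and in 7.15% of windows, and TTCNNNGAA in 4 receptors (Tnfrsf1a, Tnfrsf1b, Fas and Tnfrsf9) and in 7.04% of windows. Sequences with a match are given for 4 of the receptors that were higher with the combination than with vehicle. They run from 5′ to 3′ on the gene's strand, with the motif letters in capitals. Tnfrsf1a was also higher and has a GAS match from -244 to -236, counted back from the start, but its sequence is not printed. The window of Tnfrsf1b (minus strand, chr4:145246871-145247120) holds a GAS match from -181 to -173 and an ISRE match on the other strand from -9 to -1, counted back from the start. The window of Fas (plus strand, chr19:34290409-34290658) holds a GAS match from -93 to -85. For Tnfrsf14 (minus strand, chr4:154928122-154928150, an ISRE match on the other strand) and Tnfrsf9 (plus strand, chr4:150927947-150927975, an NF-kB match before 1 of its 2 starts) 29 bases around the match are given. These windows of Tnfrsf14 and Tnfrsf9, and that of Tnfrsf1a, overlap an exon in the GENCODE annotation. By that annotation they lie inside the gene, so they are upstream of the RefSeq start only. A match describes the letters of these windows only, and binding was not measured.
Tnfrsf1b: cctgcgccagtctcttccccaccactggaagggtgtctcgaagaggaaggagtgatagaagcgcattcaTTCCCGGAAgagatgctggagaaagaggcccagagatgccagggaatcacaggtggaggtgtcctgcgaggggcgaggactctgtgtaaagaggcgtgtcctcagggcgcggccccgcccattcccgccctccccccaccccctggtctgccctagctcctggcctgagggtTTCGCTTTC
Fas: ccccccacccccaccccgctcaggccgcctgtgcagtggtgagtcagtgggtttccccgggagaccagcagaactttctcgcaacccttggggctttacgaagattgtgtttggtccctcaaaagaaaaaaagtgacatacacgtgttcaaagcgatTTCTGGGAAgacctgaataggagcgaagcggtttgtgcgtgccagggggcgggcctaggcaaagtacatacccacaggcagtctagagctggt
Tnfrsf14: tattttttctTTCATTTTCacttttcctt
Tnfrsf9: agagcagctgGGGATTTCCcaggaggccc

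The receptor for the added ligand was examined first. Ltbr, on chromosome 6 at 125306571 to 125313885 in GRCm38, encodes the lymphotoxin beta receptor, which binds LTα1β2 and LIGHT. Its level was 71.5 and 80.6 CPM with LCL161 plus LTα1β2, 101 and 98.2 CPM with LTα1β2, and 74.4 and 76.9 CPM with vehicle. The libraries with LTα1β2 alone were thus above all others, and the remaining groups overlapped. Ltbr fell when LCL161 was added (log2 change -0.39, SE 0.10, edgeR adjusted p = 0.0272) and rose with LTα1β2 alone (0.39, SE 0.10, adjusted p = 0.0259). The fall did not pass without LCL161 plus LTα1β2 replicate 1 (adjusted p = 0.112) or without LTα1β2 replicate 1 (0.0686) or 2 (0.0974), and over 14 alternatives the adjusted p lay between 0.00233 and 0.112. The rise did not pass without any 1 of the LTα1β2 or vehicle libraries (adjusted p from 0.0813 to 0.189) or when libraries were scaled by total counts (0.136), and lay between 0.00819 and 0.189 over 14 alternatives. Between LCL161 plus LTα1β2 and vehicle the log2 change was 0.01 (95% interval -0.22 to 0.24, edgeR adjusted p = 0.954), and it was -0.31 with an adjusted p of 0.0281 under total-count scaling.

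Tnfrsf14 (HVEM, chromosome 4 at 154921933 to 154928563) encodes the other receptor of LIGHT and is also a ligand of the inhibitory lymphocyte receptor BTLA. It had 31.3 and 33.5 CPM with LCL161 plus LTα1β2, 22.9 and 27.1 CPM with LTα1β2, and 4.17 and 4.38 CPM with vehicle. Every treated library was far above vehicle, and the treated groups lay close together. The gene rose with LTα1β2 (log2 change 2.55, SE 0.15, edgeR adjusted p = 2.71e-05), and its log2 change of 0.37 on adding LCL161 (95% interval 0.07 to 0.68, adjusted p = 0.0725) did not pass. With a filter of at least 1 CPM in 2 libraries it did pass (adjusted p = 0.0414, with a range of 0.0414 to 0.468 over 14 alternatives).

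The TNF receptors moved in different ways. Tnfrsf1a (TNFR1, chromosome 6 at 125349362 to 125362484) is the death domain receptor that most cells carry, and Tnfrsf1b (TNFR2, chromosome 4 at 145213463 to 145246870) is the TRAF2-binding receptor known mainly from blood cells. Tnfrsf1a had 171 and 178 CPM with LCL161 plus LTα1β2, 277 and 279 CPM with LTα1β2, and 122 and 134 CPM with vehicle. It was highest in the libraries with LTα1β2 alone, and no groups overlapped. Tnfrsf1a fell on adding LCL161 (log2 change -0.67, SE 0.09, edgeR adjusted p = 0.00197), after a rise of 1.11 with LTα1β2 alone (SE 0.09, adjusted p = 0.000198). It remained 0.45 above vehicle on the log2 scale with the combination (SE 0.09, adjusted p = 0.00717). This last difference did not pass under total-count scaling (log2 change 0.13, adjusted p = 0.236), without LCL161 plus LTα1β2 replicate 2 (0.0712) or without vehicle replicate 1 (0.0929), with values of 0.000549 to 0.236 over 14 alternatives. The sum of 8 neutrophil markers was 552 and 574 CPM with the combination, 1193 and 974 CPM with LTα1β2, and 559 and 797 CPM with vehicle. With LTα1β2 alone 4 of these 8 genes rose and none fell, and on adding LCL161 none rose and 4 fell. Only S100a8 and S100a9 did both, and Camp and Mpo passed at neither step. Among all tested genes, 12.8% rose with LTα1β2 alone and 15.1% fell on adding LCL161. Between the combination and vehicle 2 of the 8 rose and 4 fell, where 18.4% of all tested genes rose and 21.1% fell. Of the 10 macrophage markers, Csf1r, Itgam, Fcgr1 and C1qa took the same course as Tnfrsf1a and Ltbr over these steps. Adgre1 and Mertk rose at both steps, Mrc1 fell at both, Cd14 fell and then rose, and Cd68 and Lyz2 passed at neither step. The part of either set of markers in the changes of Tnfrsf1a and Ltbr was not tested.

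Tnfrsf1b was measured at 2054 and 2221 CPM with LCL161 plus LTα1β2, 999.96 and 985 CPM with LTα1β2, and 655 and 859 CPM with vehicle. The libraries with LCL161 stood clear of the rest, while those of the other groups lay nearer to each other. Tnfrsf1b rose on adding LCL161 (log2 change 1.11, SE 0.14, edgeR adjusted p = 0.00121). Its log2 change of 0.39 with LTα1β2 alone (95% interval 0.07 to 0.71, adjusted p = 0.0802) did not pass, although it did without vehicle replicate 2 (log2 change 0.60, adjusted p = 0.0138), with limma voom (0.0491) and with no filter beyond 1 read (0.000364), in a range of 0.000364 to 0.331 over 14 alternatives. Counts of Tnfrsf1b were not whole in any of the 6 libraries, and how the reads were divided is not stated.

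Per kilobase of exon, Tnfrsf1b exceeded Tnfrsf1a in every library. The ratio of these length-scaled levels was 8.15 and 8.45 with LCL161 plus LTα1β2, 2.45 and 2.40 with LTα1β2, and 3.63 and 4.34 with vehicle. It was lowest with LTα1β2 alone and highest with the combination, and no groups overlapped. The ratio does not depend on how libraries are scaled to each other. An exact permutation test of 2 libraries against 2 cannot give a two-sided p below 0.333, so no test was made.

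**Figure D3:**
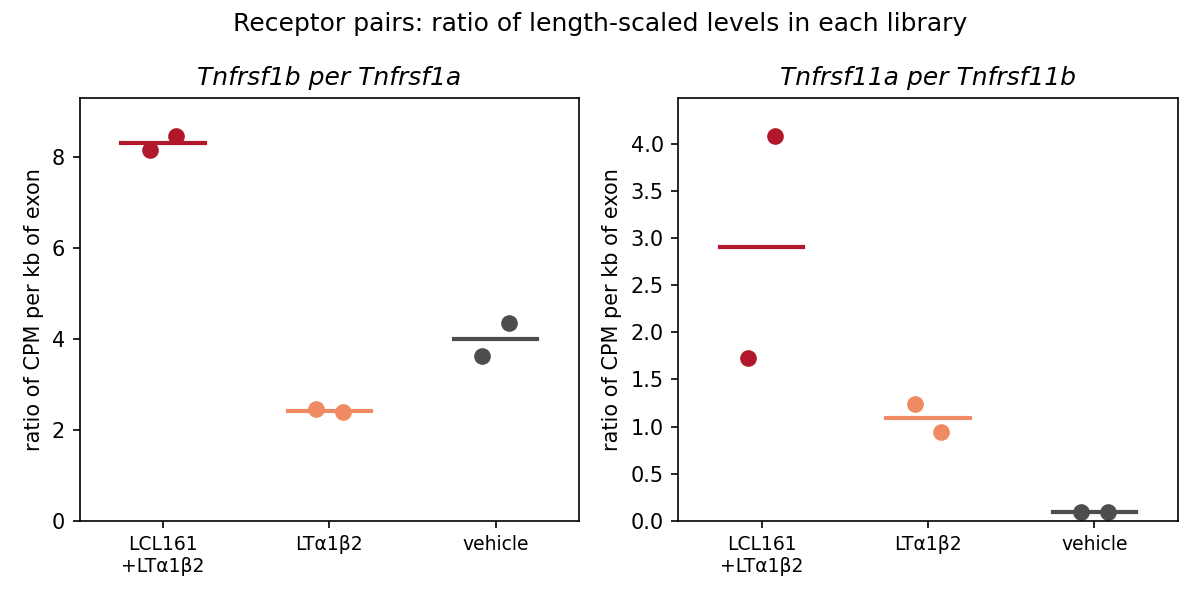
Ratio of CPM per kilobase of exon (vertical axis, from 0) between Tnfrsf1b and Tnfrsf1a (left) and between Tnfrsf11a and the decoy receptor gene Tnfrsf11b (right) in every library, with points for libraries and bars for group means. The left ratio is 8.15 and 8.45 with LCL161 plus LTα1β2, and the right ratio is 0.0972 and 0.0923 with vehicle.

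Cd40 (chromosome 2 at 165055627 to 165072948) encodes the costimulatory receptor through which CD40 ligand on T cells acts on antigen-presenting cells. It had 7916 and 8567 reads with LCL161 plus LTα1β2, 507 and 776 reads with LTα1β2, and 121 and 74 reads with vehicle. In CPM these were 578 and 656 with the combination, 32.4 and 41.5 with LTα1β2, and 5.60 and 4.0 with vehicle. No groups overlapped, and each step was larger than the gap between replicates. The gene rose 16.7-fold on adding LCL161 (log2 change 4.06, SE 0.18, edgeR adjusted p = 1.86e-05) and 7.65-fold with LTα1β2 alone (2.93, SE 0.19, adjusted p = 5.34e-05). Together this was 128-fold above vehicle (log2 change 7.0, SE 0.22, adjusted p = 7.70e-07). These calls held under all 14 alternatives run for each comparison. Cd40 is also known from B cells and dendritic cells. The summed level of 5 B cell markers was 12.4 and 8.19 CPM with the combination, 11.9 and 4.54 CPM with LTα1β2, and 7.04 and 5.89 CPM with vehicle. That of 6 dendritic cell markers was 19.9 and 20.7 CPM with the combination, 14.5 and 14.2 CPM with LTα1β2, and 8.05 and 9.46 CPM with vehicle. Between the combination and vehicle 4 of the 6 dendritic cell markers rose (Flt3, Xcr1, Clec9a and Siglech) and none fell. Flt3 passed only narrowly (edgeR adjusted p = 0.04996), with 52 reads in all with the combination and 26 with vehicle. In that comparison 1 of the 4 B cell markers tested rose (Ms4a1), and 18.4% of all tested genes rose. On adding LCL161 Siglech rose, and with LTα1β2 alone Clec9a rose. The part of such cells in the Cd40 result was not tested.

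Fas (chromosome 19 at 34290666 to 34327772), whose promoter window with its GAS match is printed with the motifs, encodes the death receptor bound by Fas ligand. Its levels were 44.5 and 41.9 CPM with LCL161 plus LTα1β2, 11.6 and 12.9 CPM with LTα1β2, and 7.22 and 7.78 CPM with vehicle. The groups did not overlap, and most of the rise lay between LTα1β2 alone and the combination. Fas rose 3.52-fold on adding LCL161 (log2 change 1.82, SE 0.13, edgeR adjusted p = 0.000122). With LTα1β2 alone it rose 1.63-fold (log2 change 0.71, SE 0.13, adjusted p = 0.00798), a call lost without LTα1β2 replicate 2 (adjusted p = 0.0630) and without vehicle replicate 1 (0.0801), in a range of 0.000251 to 0.0801 over 14 alternatives.

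Tnfrsf9 (4-1BB, chromosome 4 at 150914562 to 150946102), a costimulatory receptor best known from activated T cells and NK cells, was the least abundant of the set. It had 42 and 49 reads with LCL161 plus LTα1β2, 15 and 9 reads with LTα1β2, and 14 and 14 reads with vehicle. As CPM this was 3.06 and 3.75, 0.957 and 0.481, and 0.648 and 0.757 in the same order of groups. Only the libraries with LCL161 stood apart, and the others overlapped. Tnfrsf9 rose 4.78-fold on adding LCL161 (log2 change 2.26, SE 0.40, edgeR adjusted p = 0.00614), and the log2 change with LTα1β2 alone was 0.01 with a wide 95% interval of -1.05 to 1.08 (adjusted p = 0.989). Of 8 T and NK cell markers 3 passed the filter, and the summed level of all 8 was 23.9 and 23.9 CPM with the combination, 3.32 and 2.03 CPM with LTα1β2, and 1.30 and 2.16 CPM with vehicle. Most of the sum with the combination was Cd247, the CD3 zeta chain gene, with a mean of 19.9 CPM with the combination, 0.821 CPM with LTα1β2 and 0.479 CPM with vehicle, and it rose on adding LCL161. The NK cell gene Ncr1 averaged 1.19 CPM with the combination, 0.346 CPM with LTα1β2 and 0.100 CPM with vehicle, and was higher with the combination than with vehicle (edgeR adjusted p = 0.0269). The T cell gene Cd3e averaged 0.678, 0.618 and 0.401 CPM in these groups and passed in none of the 3 comparisons, and the means of the other 5 markers, which were not tested, were also highest with the combination. The part of such cells in the Tnfrsf9 result was not tested.

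Tnfrsf11a (RANK, chromosome 1 at 105780718 to 105847981) is the receptor of RANKL, through which marrow precursors become osteoclasts. It had 55.4 and 113 CPM with LCL161 plus LTα1β2, 140.1 and 134 CPM with LTα1β2, and 43.6 and 41.7 CPM with vehicle. The libraries with the combination differed widely from each other and lay between the other groups. Tnfrsf11a rose with LTα1β2 (log2 change 1.69, SE 0.28, edgeR adjusted p = 0.00523) and was above vehicle with the combination (0.98, SE 0.28, adjusted p = 0.0271). The second of these calls was lost without LCL161 plus LTα1β2 replicate 2 (log2 change 0.31, adjusted p = 0.0924), LTα1β2 replicate 2 (0.0527), vehicle replicate 1 (0.109) or vehicle replicate 2 (0.126) and under total-count scaling (0.0675), in a range of 7.63e-10 to 0.126 over 14 alternatives. Its log2 change of -0.70 on adding LCL161 did not pass (95% interval -1.35 to -0.06, adjusted p = 0.0999). It passed without LCL161 plus LTα1β2 replicate 2 (log2 change -1.37, adjusted p = 0.000214), under total-count scaling (0.0403), with DESeq2 (0.0463) and with no filter beyond 1 read (6.16e-08), in a range of 6.16e-08 to 0.240, and without replicate 1 of that group the log2 change was -0.29.

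Tnfrsf11b, which encodes osteoprotegerin, the soluble decoy receptor of RANKL, fell at both steps. It had 15.1 and 13.1 CPM with LCL161 plus LTα1β2, 53.4 and 67.1 CPM with LTα1β2, and 211 and 213 CPM with vehicle (combination against vehicle, log2 change -3.91, SE 0.15, edgeR adjusted p = 1.73e-06). Per kilobase of exon the ratio of Tnfrsf11a to Tnfrsf11b was 1.73 and 4.08 with the combination, 1.24 and 0.942 with LTα1β2, and 0.0972 and 0.0923 with vehicle. Vehicle libraries were thus far below the treated ones, and the treated groups did not overlap although the combination libraries were widely spaced. The gene of RANKL itself, Tnfsf11, had means of 0.299 CPM with the combination, 0.656 CPM with LTα1β2 and 3.23 CPM with vehicle. It fell with LTα1β2 alone (log2 change -2.27, edgeR adjusted p = 0.00354). Tnfsf11 was also lower with the combination than with vehicle (-3.40, adjusted p = 0.000463). On adding LCL161 its change of -1.13 did not pass (adjusted p = 0.129). Osteoprotegerin is known as a product of stromal and osteoblast cells, and the summed stromal markers fell alongside it (896 and 943 CPM with the combination, 3213 and 4445 CPM with LTα1β2, 11894 and 8259 CPM with vehicle). The part of stromal cells in its change was not tested.

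Tnfrsf12a (Fn14, chromosome 17 at 23675445 to 23677468), the receptor of TWEAK, known as an injury-induced receptor of fibroblasts and epithelia, was the only member that fell at both steps. Its levels were 31.4 and 34.5 CPM with LCL161 plus LTα1β2, 73.2 and 93.7 CPM with LTα1β2, and 167 and 159 CPM with vehicle. The groups did not overlap. Tnfrsf12a fell on adding LCL161 (log2 change -1.34, SE 0.14, edgeR adjusted p = 0.000483) and with LTα1β2 alone (-0.97, SE 0.13, adjusted p = 0.00205). Both calls held under all 14 alternatives of each comparison. The 10 stromal markers called lower in each comparison moved the same way, with a median log2 change over the 12 tested of -2.03 on adding LCL161 and -1.36 with LTα1β2 alone. Their part in the change of Tnfrsf12a was not tested.

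The steps were compared by testing the difference of their log2 changes, the change on adding LCL161 minus the change with LTα1β2 alone. LCL161 was given only on top of LTα1β2, so this is not a comparison of LCL161 by itself with LTα1β2. The libraries with LTα1β2 alone enter both changes with opposite sign, so an error in them moves the changes in opposite directions. The difference passed for 5 of the 9 receptors, 1 higher and 4 lower, where 13.9% of all genes passed (3.73% higher and 10.2% lower). The change on adding LCL161 was the more positive for Fas (difference 1.11, SE 0.23, edgeR adjusted p = 0.0178). It was the more negative for Tnfrsf11a (-2.39, SE 0.46, adjusted p = 0.0147), Tnfrsf14 (-2.18, SE 0.23, 0.00118), Tnfrsf1a (-1.78, SE 0.16, 0.000477) and Ltbr (-0.78, SE 0.17, 0.0229). For Cd40 the difference was 1.13 (95% interval 0.41 to 1.85) with an adjusted p of 0.0514, which passed under 8 of 13 alternatives (range 0.00349 to 0.290). Tnfrsf9 (2.24, 95% interval 0.46 to 4.02), Tnfrsf1b (0.72, 0.15 to 1.28) and Tnfrsf12a (-0.37, -0.90 to 0.16) did not pass, with adjusted p of 0.0983, 0.0958 and 0.328. The Tnfrsf1b difference passed under 3 of 13 alternatives (adjusted p from 0.0215 to 0.413). Of the differences that passed, that of Fas was lost under 5 of 13 alternatives (without either LTα1β2 or either vehicle library, and with no filter beyond 1 read; 0.00906 to 0.164). That of Ltbr was lost under 4, without either LTα1β2 or either vehicle library (0.000558 to 0.141). That of Tnfrsf11a was lost without LTα1β2 replicate 1 (0.0578) or 2 (0.0918), with adjusted p from 7.33e-27 to 0.0918. Leaving out either library with LTα1β2 alone lowered the count of 5 to 2.

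The order of receptor levels also changed. Per kilobase of exon, vehicle libraries ranked Tnfrsf1b first (198 ± 37.7 CPM per kb, SD, n = 2), then Tnfrsf12a, Tnfrsf1a, Ltbr, Tnfrsf11a, Fas, Tnfrsf14, Cd40 and Tnfrsf9 (0.258 ± 0.0282). With LTα1β2 alone Tnfrsf1b (260.0 ± 2.7) and Tnfrsf1a (107 ± 0.657) led, and Cd40 was seventh. With LCL161 plus LTα1β2, Tnfrsf1b (559.8 ± 30.9) was followed by Cd40 (181 ± 16.3), Tnfrsf1a (67.4 ± 2.00), Ltbr, Tnfrsf14, Fas, Tnfrsf12a, Tnfrsf11a and Tnfrsf9. Neighbours in these orders had libraries that overlapped only for Tnfrsf12a and Ltbr with LTα1β2 and for Tnfrsf12a and Tnfrsf11a with the combination.

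The other receptors of the superfamily were counted as a list of 19, of which 14 passed the filter. On adding LCL161, 1 rose and 6 fell (median log2 change -0.55). With LTα1β2 alone 1 rose and 5 fell (median -0.33), and between the combination and vehicle 1 rose and 8 fell (median -1.13). Among all tested genes, 25.7%, 23.4% and 39.5% changed in these comparisons, with 15.1%, 10.6% and 21.1% lower. Of the 12 stromal markers tested 10 fell in each of these comparisons, with median log2 changes of -2.03, -1.36 and -3.41, and their part in the falls of these receptors was not tested. Tnfrsf8 (CD30, a receptor known from activated lymphocytes) was the gene that rose with LCL161, to 4.27 ± 0.463 CPM, against 1.39 ± 0.832 CPM with LTα1β2 and 1.13 ± 0.229 CPM with vehicle (log2 change 1.64, SE 0.41, edgeR adjusted p = 0.0241 on adding LCL161). Tnfrsf21 (DR6, a death domain receptor) rose with LTα1β2 and fell on adding LCL161, as did Tnfrsf1a and Ltbr, with 73.0 ± 4.48 CPM with the combination, 193 ± 12.1 CPM with LTα1β2 and 126 ± 18.5 CPM with vehicle (log2 changes of 0.61, SE 0.12, edgeR adjusted p = 0.0114, with LTα1β2 and -1.40, SE 0.13, adjusted p = 0.000303, on adding LCL161). Between the combination and vehicle, Tnfrsf10b (a TRAIL receptor, log2 change -1.42), Eda2r (-2.78), Relt (-1.09), Tnfrsf22 (-1.18), Tnfrsf23 (-1.38) and Tnfrsf26 (-1.21) were lower, with Tnfrsf11b and Tnfrsf21. Tnfrsf22, Tnfrsf23 and Tnfrsf26 lie side by side on chromosome 7, and their counts were not whole in 5, 6 and 3 of the 6 libraries, so how reads were divided among them is uncertain. Exons of Tnfrsf23 and Tnfrsf26 also overlap E230032D23Rik on the other strand.

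**Figure D4:**
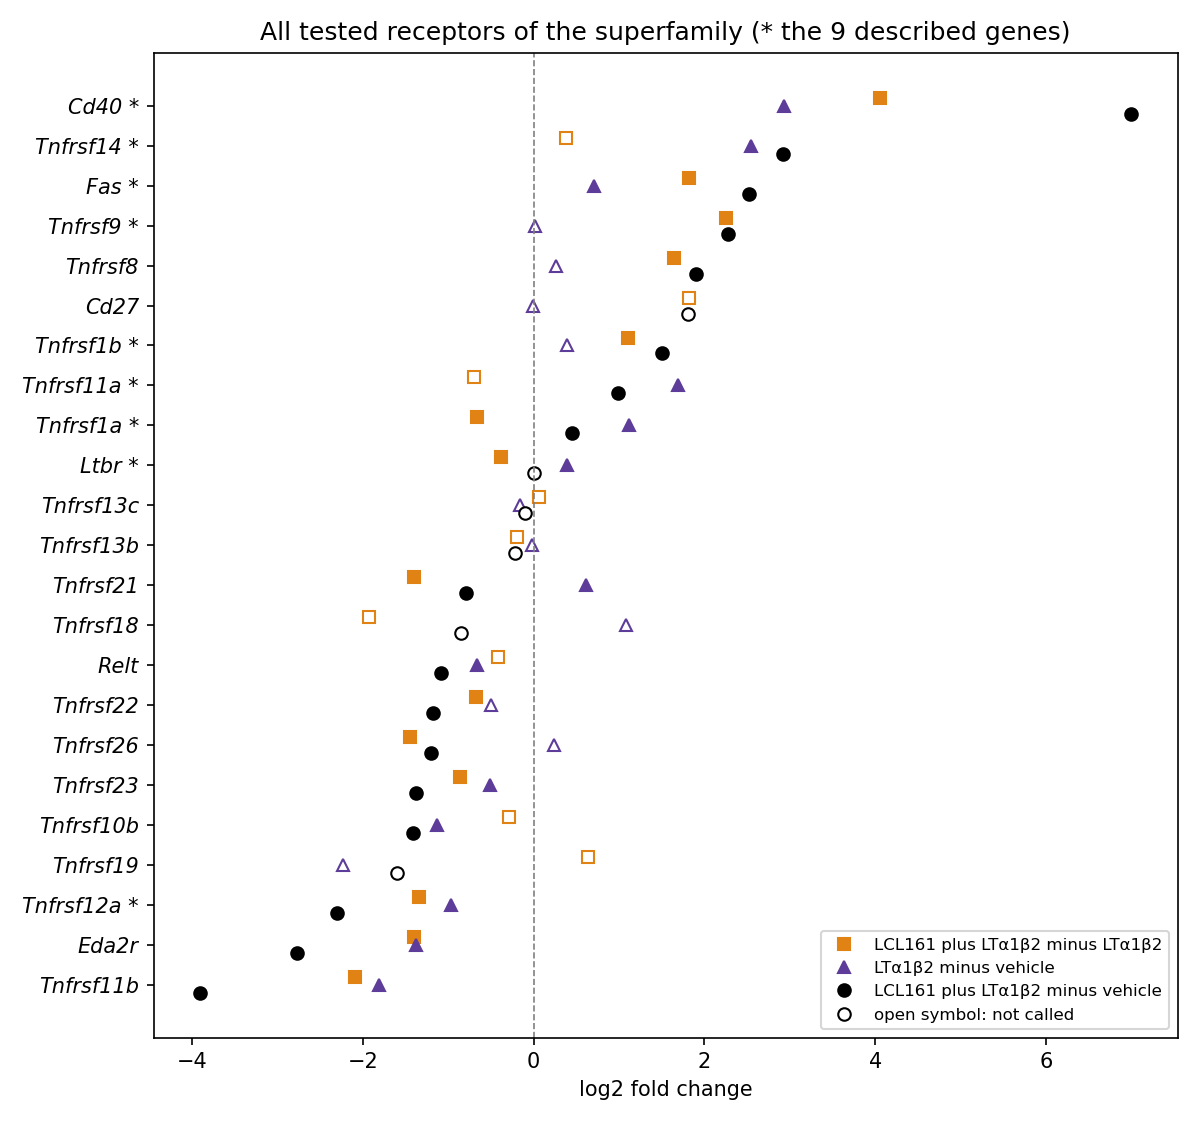
Log2 fold change (horizontal axis) of the 9 described receptors (starred) and the 14 other superfamily receptors that passed the filter, ordered by the change between LCL161 plus LTα1β2 and vehicle. Squares, triangles and circles are the 3 comparisons, and open symbols did not pass edgeR's adjusted p of 0.05. Cd40 at 7.0 is at the top and Tnfrsf11b at -3.91 is at the bottom.

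Apart from Tnf, ligand genes of the 9 receptors had group means of at most 18.8 CPM. Of 9 ligand genes 7 passed the filter, and 3 rose and 1 fell on adding LCL161, 2 rose and 1 fell with LTα1β2 alone, and 4 rose and 2 fell between the combination and vehicle. Among all tested genes, 25.7%, 23.4% and 39.5% changed in these comparisons. Tnf, the ligand of both TNF receptors, had 424 ± 33.9 CPM with LCL161 plus LTα1β2, 89.3 ± 9.55 CPM with LTα1β2 and 23.6 ± 2.19 CPM with vehicle, and rose in all 3 comparisons (between the combination and vehicle, log2 change 4.17, SE 0.14, edgeR adjusted p = 9.18e-07). Tnfsf9, the 4-1BB ligand, rose with its receptor on adding LCL161, to 18.8 ± 1.81 CPM, against 3.08 ± 0.562 CPM with LTα1β2 and 4.42 ± 0.292 CPM with vehicle. Tnfsf14 (LIGHT), which binds the products of Ltbr and Tnfrsf14, had 0.713 ± 0.183 CPM with the combination, 2.10 ± 0.0147 CPM with LTα1β2 and 0.764 ± 0.163 CPM with vehicle, rising with LTα1β2 and falling when LCL161 was added (edgeR adjusted p = 0.0290 and 0.0270). Lta, which encodes the alpha chain of the added ligand, had 25.5 and 19.5 reads with the combination, 1 and 0 reads with LTα1β2, and 0 and 2 reads with vehicle, and passed between the combination and each other group. Cd40lg and Fasl did not pass the filter.

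Several genes that act directly below the receptors rose, and none of the list fell. Of 13 adaptors and regulators tested, 8 rose on adding LCL161 (median log2 change 0.76), 5 with LTα1β2 alone (0.34) and 9 between the combination and vehicle (1.13). Among all tested genes, 10.6%, 12.8% and 18.4% rose in these comparisons. Traf1, an adaptor that joins TRAF2 at CD40 and TNFR2, had 221 and 249 CPM with LCL161 plus LTα1β2, 6.96 and 11.4 CPM with LTα1β2, and 3.80 and 4.76 CPM with vehicle (on adding LCL161, log2 change 4.66, SE 0.23, edgeR adjusted p = 2.75e-05). Cflar, which encodes cFLIP, the inhibitor of caspase-8 at death receptors, had 441 ± 11.7 CPM with the combination, 106 ± 15.9 CPM with LTα1β2 and 81.8 ± 0.659 CPM with vehicle (on adding LCL161, 2.06, SE 0.12, adjusted p = 5.86e-05). Birc3 (cIAP2) and Traf2 also rose on adding LCL161, by 1.45 (SE 0.09, edgeR adjusted p = 6.86e-05) and 1.12 (SE 0.10, adjusted p = 0.000344) on the log2 scale. With LTα1β2 alone the smallest p belonged to Birc3, Birc2, Traf1 and Traf5, with log2 changes of 0.90, 0.54, 1.12 and 0.59. Of the genes that act below death receptors, Tradd, Fadd and Casp8, chosen for mention after their values were seen, passed in none of the 3 comparisons. Ripk1 rose with LTα1β2 alone (log2 change 0.34, SE 0.09, edgeR adjusted p = 0.0308) and passed in neither of the other comparisons.

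Receptor shedding genes were examined because TNF receptors and CD40 are cut from the cell surface. Adam17, the protease that sheds both TNF receptors, rose at both steps, to 746 ± 10.004 CPM with LCL161 plus LTα1β2, against 363 ± 11.6 CPM with LTα1β2 and 276 ± 12.6 CPM with vehicle. Rhbdf2, the iRhom that carries ADAM17 to the surface of immune cells, had 187 ± 15.7, 155 ± 16.2 and 64.3 ± 9.89 CPM in the same groups, and rose with LTα1β2 (log2 change 1.27, SE 0.14, edgeR adjusted p = 0.000744). Timp3, which encodes an inhibitor of ADAM17, was lower with the combination (68.9 ± 13.9 CPM) and with LTα1β2 (95.01 ± 8.92 CPM) than with vehicle (330 ± 102 CPM). Rhbdf1 fell at both steps, to 5.50 ± 2.62 CPM with the combination, against 16.2 ± 3.62 CPM with LTα1β2 and 33.0 ± 2.82 CPM with vehicle. Of the 12 stromal markers tested 10 fell in each of the 3 comparisons, and their part in the changes of Timp3 and Rhbdf1 was not tested. Adam10, which also sheds surface proteins, fell to 228 ± 11.2 CPM with the combination, against 345 ± 45.6 CPM with LTα1β2 and 331 ± 57.9 CPM with vehicle. Receptor protein on the cell surface was not measured.

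Genes whose pattern was most like a receptor were named by the smallest root mean square difference of centred log2 CPM over the 6 libraries. For Tnfrsf14 these were Psme1 (0.0933), Tapbp (0.111) and Nod1 (0.120), and for Fas they were Ppp1r12b (0.0438), Ptafr (0.0810) and Stx11 (0.113). For Cd40 the nearest were Cxcl11 (0.330), Ifi205 (0.392) and Rasgrp1 (0.411). This distance is not scaled to the size of a gene's change, so it can be larger for genes that change more. The Pearson correlation over the 6 libraries was 0.994 both for Cd40 with Cxcl11 and for Ltbr with Fen1. For Tnfrsf12a the nearest were Dbn1 (0.0357), Pyroxd2 (0.0607) and Mfge8 (0.0607). Those nearest to Ltbr were Fen1, Tm7sf2 and Csk (0.0230 to 0.0277), and those nearest to Tnfrsf1a were Capn1, Lyn and Aldh1l1 (0.0697 to 0.0730). Tnfrsf1b was closest to Coq8a, Acss2 and Atp6v0b (0.0689 to 0.0859), Tnfrsf11a to Paxbp1, Mcmbp and Ubr3 (0.0492 to 0.0936), and Tnfrsf9 to Acvr1c, Ctcflos and Ccnjl (0.142 to 0.175). All 6 points share the treatment groups, so these distances describe a shared course and nothing more.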

How the data were processed

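The authors deposited 1 table of expected counts by gene symbol, not normalised, in which 66.6% of the non-zero values are whole. STAR 2.7.3a, DESeq2 1.26.0 and GRCm38 are named in the submitters' processing notes. The counting program, annotation, strand setting and handling of reads with several matches are not given in the sources used. Groups and replicate numbers came from the sample titles. Counts were rounded, and filterByExpr (minimum 10 reads) left 18812 genes, leaving out 36211. CPM used library sizes scaled by TMM. The factors were 0.936 and 0.874 with LCL161 plus LTα1β2, 0.985 and 0.984 with LTα1β2, and 1.15 and 1.10 with vehicle. They did not overlap between groups. All comparisons came from 1 group-means model over the 6 libraries in edgeR 4.0.16 under R 4.3.3 (estimateDisp, glmQLFit in its legacy form, glmQLFTest, two-sided), with Benjamini-Hochberg adjustment over all genes tested. There were 3 residual and 4.59 prior degrees of freedom, and the biological coefficient of variation was 13.6%. Dividing a log2 change by the square root of F and dropping its sign gave the SE, from which 95% intervals were taken. Alternatives were relative log expression factors, total-count scaling, DESeq2 1.42.0, limma 3.58.1 voom, other filters, a fit to the compared groups alone, a replicate block, and leaving out each library in turn.

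Positions, exon lengths (the union of a gene's exons) and overlaps came from GENCODE M21 on GRCm38, matched by symbol. No exon of the 9 receptors overlaps another annotated gene. Promoter sequences are RefSeq's. The members and lists were chosen with earlier results of these data known. Named genes were the 9 receptors, other superfamily receptors that were called with at least 1 CPM in a group, their ligands, up to 4 signalling genes per comparison by p, genes of receptor shedding, and the 3 genes of most similar pattern per receptor. Markers of macrophages and of 8 other cell types or groups were summed.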

Additional observations from a re-analysis of the deposited data

How the results depend on the processing

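Of 495 values of single receptors under an alternative, 436 kept their direction and side of the threshold, 29 lost a call, 19 gained one and 11 turned sign. The values that turned belonged to 2 results, each with a log2 change of 0.01 in the report. For Tnfrsf9 with LTα1β2 alone, the log2 change was -0.17 under total-count scaling, -0.067 with limma voom, -0.46 without LTα1β2 replicate 1 and -0.10 without vehicle replicate 1, in a range of -0.46 to 0.44 with 1 library left out. For Ltbr between LCL161 plus LTα1β2 and vehicle, it was -0.31 under total-count scaling, -0.047 with no filter beyond 1 read, -0.0077 with only these groups, and -0.15, -0.038, -0.065 and -0.015 without LCL161 plus LTα1β2 replicate 2, LTα1β2 replicate 2, vehicle replicate 1 and vehicle replicate 2, in a range of -0.15 to 0.077 with 1 library left out. The cause was not tested.

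With 1 library left out, the receptors called numbered 6 to 8 on adding LCL161, 5 to 7 with LTα1β2 alone, 6 to 8 between the combination and vehicle, and 2 to 6 for the difference of the steps. The genes called among all tested numbered 2332 to 4604, 1930 to 4933, 4885 to 7285 and 794 to 3112 in that order, and for the difference of the steps 4103 with no filter beyond 1 read. The totals behind these counts differ: 20131 to 21692 genes were tested with 1 library left out and 47056 with no filter beyond 1 read. The fit used above tested 18812. Where 1 library remains in a group, it is assumed to vary like the others. Total-count scaling moved the median log2 change of all genes to -0.12, -0.23 and -0.26 in the 3 comparisons, and its calls were 1524 higher and 3924 lower, 1836 and 3729, and 2137 and 6561, against 1989 and 2843, 2410 and 1991, and 3463 and 3968 with TMM.

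The replicate numbers are shared between groups, but the labels do not say that they mark a common batch or animal. Deviations of same-numbered libraries correlated across genes at 0.157, 0.0941 and 0.138 between pairs of groups. With the replicate block 7, 7 and 8 receptors were called in the 3 comparisons and 5 for the difference of the steps, with 4629, 4144, 7308 and 2430 of all genes, and no receptor changed its call. Tnfrsf9 had 9 to 49 reads per library, which limits its precision.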
